A study of Mus musculus with 67 samples.

Results

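The regions described here are 1158 chromatin elements that were more accessible in p0-1 neural progenitors (NPs) than in p2, pMN or p3 NPs of a mouse embryonic stem (ES) cell model of the ventral spinal cord. They were chosen from 111638 elements by the mean over days 5 and 6 of differentiation, with all smoothened agonist (SAG) concentrations of a cell type pooled. A member had a mean at least 0.5 above that of each other NP type and of at least 7, on the variance-stabilized (VST) scale of the deposited values, a log2-like scale on which 7 corresponds to 115 normalized counts. The means came from 11 p0-1, 12 p2, 9 pMN and 9 p3 samples. The same rule applied to the other types gave 416 elements for p2, 1919 for pMN and 4681 for p3. Because these values chose the members, all values of days 5 and 6, between or within cell types, are given as a description. Tests of the members rest on days 3 and 4, which the rule did not use.

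The study asked how a graded signal is read out through regulatory DNA, and measured accessibility by CaTS-ATAC, in which fixed cells are tagged by a transposase at open chromatin, stained for intracellular transcription factors and sorted. All 67 samples came from the male mouse ES cell line HM1, unmodified, so that 1 line stands for the tissue. Every culture had FGF and then a Wnt pathway activator with inhibitors of TGF-beta and BMP signaling up to day 3, when neuromesodermal progenitors (NMPs) were sorted without SAG, and retinoic acid from day 3 onward. SAG, which activates Smoothened in the place of Sonic hedgehog (Shh), was present from day 3 at 0 or 10 nM in cultures sorted for p0-1, at 10 or 100 nM for p2, and at 100 or 500 nM for pMN and p3. Hence p0-1 and p2 shared 10 nM, while p0-1 shared no concentration with pMN or p3, and for those pairs cell type and SAG concentration cannot be told apart. There were 3 NMP samples and, for p0-1, 6 samples on day 4, 6 on day 5 and 5 on day 6, of which 2 had no SAG. A p2 sample of day 6 at 100 nM, replicate 3, stood apart from the other libraries of its group, with a median over the members of 7.28 against 6.77 and 6.80, and leaving it out gave 1161 members. Depth was between 9298160 and 29985325 reads in elements per sample, and replicates were independent differentiations. In comparisons within differentiations, equal replicate numbers were taken to mark the same differentiation, which the labels do not state.

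In the neural tube, Shh from the notochord and floor plate forms a gradient that is highest ventrally. The p0 and p1 domains lie at its dorsal limit, next to the dorsal progenitors that are patterned by BMP and Wnt signals, and give rise to V0 and V1 interneurons. DBX1 and DBX2 are homeodomain proteins of these domains, and NKX6 proteins of the more ventral progenitors repress Dbx genes. Distal elements that open in 1 domain are candidates for the enhancers of its genes. A gene name given with an element below is that of the nearest transcription start site (TSS) in the deposited annotation, and not a tested target.

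The labels were compared with the elements nearest to the start sites of domain markers. On day 6 the element at Olig2, the pMN determinant, had a mean VST of 8.70 in p0-1 against 11.2 in pMN. That at Foxa2, made in floor plate and early p3 cells, had 8.09 in p0-1 against 10.7 in p3. The element at Nkx2-9, also a p3 marker, was higher in pMN (11.033) than in p3 (10.905) on that day. Of 3 p2 markers, that at Foxn4 was highest in p2, at 8.254, and that at Irx3 in p0-1, at 11.547 against 11.318 in p2. That at Nkx6-1 had 11.343 in pMN, 11.307 in p3, 11.253 in p2 and 10.479 in p0-1. The element in an intron of Dbx1, 1454 bp from its start, was itself a member, at 11.3 in p0-1 and between 9.31 and 10.1 in the other NPs. Of the other p0-1 markers, that at Prdm12 was a member, those at Dbx2 (8.75 against 8.41 in pMN) and Pax6 (11.9 against 11.7 in p2) were highest in p0-1 but were not members, and that at Nkx6-2 was not highest in p0-1, at 9.43 against 9.63 in pMN and 9.78 in p3. Of 9 elements at the starts of dorsal progenitor genes, those of Pax3 and Pax7 were members and 7 were not, among them Msx2, with 9.04 in p0-1, 9.16 in p2 and 9.27 in pMN. The part that cells of the adjacent dorsal domains in the sort could have in these values was not tested, and in sorted bulk samples fewer accessible cells and less accessibility per cell cannot be told apart.

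DNA of 6 members is shown because the results turn on them: the 4 with the largest excess of p0-1 over the next type, and 2 upstream of Dbx1. Each line is the central 300 bases of the element, on the plus strand of mm10 (GRCm38), and capitals mark homeodomain cores (TAATTA or TAATTG), a TEAD core (GGAATG) and a nuclear receptor core (AGGTCA), on either strand. A match is a description and not a bound site.
Element 35346 bp upstream of Jak2, chr19:29216307-29216606: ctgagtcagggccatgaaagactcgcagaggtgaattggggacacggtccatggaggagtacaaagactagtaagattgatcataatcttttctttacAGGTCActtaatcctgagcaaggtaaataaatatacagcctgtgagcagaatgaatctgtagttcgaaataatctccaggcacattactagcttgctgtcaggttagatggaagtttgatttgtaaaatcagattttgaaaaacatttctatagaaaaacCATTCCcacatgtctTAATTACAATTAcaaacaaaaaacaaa
Element 79525 bp upstream of Cdon, chr9:35372401-35372700: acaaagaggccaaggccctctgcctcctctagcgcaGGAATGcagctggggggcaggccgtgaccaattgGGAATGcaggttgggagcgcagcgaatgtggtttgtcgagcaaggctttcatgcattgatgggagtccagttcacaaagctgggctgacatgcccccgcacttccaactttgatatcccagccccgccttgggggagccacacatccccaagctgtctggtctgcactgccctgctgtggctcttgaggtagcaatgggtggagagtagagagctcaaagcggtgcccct
Element 53738 bp upstream of 4930519L02Rik, chr3:142976726-142977025: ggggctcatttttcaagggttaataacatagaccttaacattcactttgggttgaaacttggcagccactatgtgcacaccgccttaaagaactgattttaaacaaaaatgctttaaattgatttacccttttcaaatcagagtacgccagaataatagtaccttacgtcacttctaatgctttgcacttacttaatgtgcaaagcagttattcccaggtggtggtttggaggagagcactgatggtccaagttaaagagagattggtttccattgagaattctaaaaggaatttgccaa
Element 59516 bp upstream of Htatip2, chr7:49699440-49699739: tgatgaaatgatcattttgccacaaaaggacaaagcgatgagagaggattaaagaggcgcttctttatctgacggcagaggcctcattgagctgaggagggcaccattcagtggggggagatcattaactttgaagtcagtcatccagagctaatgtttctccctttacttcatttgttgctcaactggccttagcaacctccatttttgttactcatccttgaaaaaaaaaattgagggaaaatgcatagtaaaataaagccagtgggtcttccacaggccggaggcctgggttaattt
Element 3270 bp upstream of Dbx1, chr7:49639955-49640254: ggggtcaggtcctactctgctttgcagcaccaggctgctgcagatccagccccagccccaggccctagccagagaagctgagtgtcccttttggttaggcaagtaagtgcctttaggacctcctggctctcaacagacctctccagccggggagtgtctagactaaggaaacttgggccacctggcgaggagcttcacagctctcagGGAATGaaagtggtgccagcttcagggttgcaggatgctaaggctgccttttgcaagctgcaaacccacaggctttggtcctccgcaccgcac
Element 59780 bp upstream of Dbx1, chr7:49696465-49696764: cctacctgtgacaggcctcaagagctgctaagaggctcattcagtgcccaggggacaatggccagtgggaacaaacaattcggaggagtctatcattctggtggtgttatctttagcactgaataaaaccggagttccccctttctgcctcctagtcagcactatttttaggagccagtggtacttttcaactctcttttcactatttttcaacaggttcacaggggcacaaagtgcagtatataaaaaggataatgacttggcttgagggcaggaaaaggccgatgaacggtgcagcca
The Jak2 element held 2 homeodomain cores, 1 TEAD core and 1 nuclear receptor core, the Cdon element 2 TEAD cores and the element close to Dbx1 1 TEAD core. In the other 3 windows none of these letters were found.

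Members were mostly distal. The annotation placed 53.5% of them between genes and 41.6% in introns, against 44.2% and 41.1% of all elements, and 20 members, 1.73%, at a promoter, against 7.41% of all elements. The distance to the nearest TSS had a median of 59159.5 bp in members and 32610.5 bp in all elements, and was above 100000 bp for 35.6% and 24.0%. The other sets chosen by the same rule were distal too, with medians of 58706.5 bp for p2, 51694 bp for pMN and 43057 bp for p3, and the p2 set had 51.9% between genes and 0.481% at a promoter. The median width of members was 1064 bp. The central windows of members had a median GC content of 45.3%, against 48.0% over all elements.

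The excess of p0-1 over the next type had a median of 0.69 and reached 2.60 at Jak2, with 161 members at 1 or more and 3 at 2 or more. At the threshold, elements of Grin2b, Impdh1 and Zfp281 were just inside and elements of Chrna9, Gm30332 and Cdkal1 just outside, all with an excess that rounds to 0.50. The type next to p0-1 was p2 at 875 members (75.6%), pMN at 148 and p3 at 135. At 764 members (66.0%) the means fell in the order p0-1, p2, pMN, p3, which is the dorsal to ventral order of the domains. The median difference was 0.74 to p2, 1.12 to pMN and 1.82 to p3. Of the members, 268 were at or above a VST of 7 in every other type, and 472 were below it in all of them.

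By library, the median over the members rose from between 4.45 and 4.66 in the 3 NMP samples to between 5.96 and 7.19 in the 6 p0-1 samples of day 4. It was between 7.91 and 8.41 on day 5 and between 7.54 and 8.39 on day 6. The plot of library medians shows p0-1 and p2 overlapping on day 4 and apart on the later days that the rule used.

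**Figure D1:**
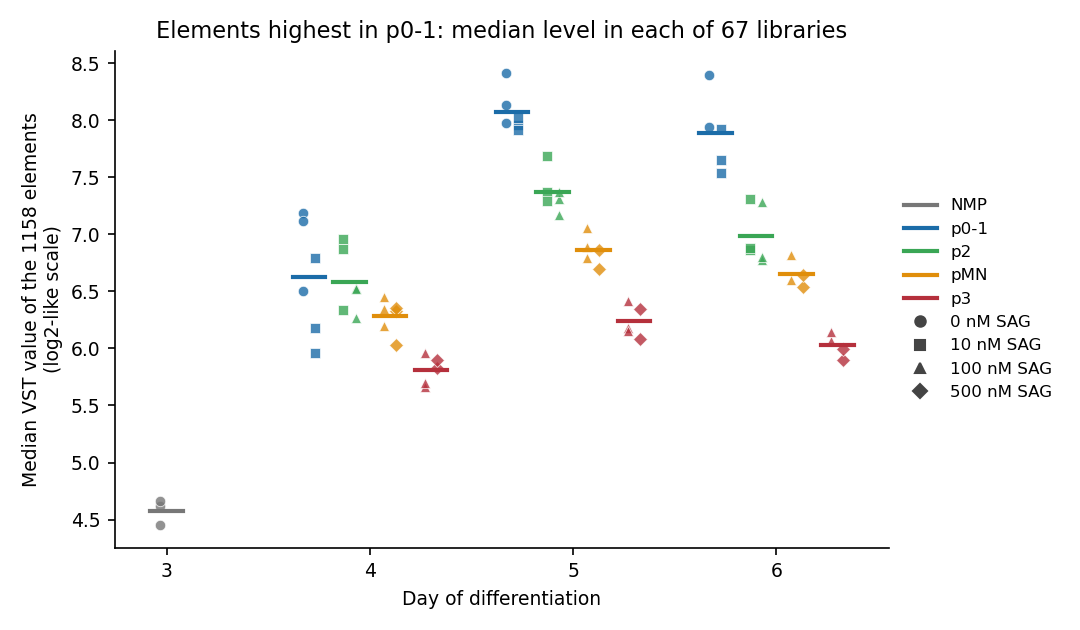
Median VST value of the 1158 elements (vertical axis, log2-like scale) in each of 67 libraries by day of differentiation (horizontal axis), with 1 point per library and colors for cell types. The p0-1 libraries run from 5.96 to 7.19 on day 4, where they overlap p2, and from 7.54 to 8.41 on days 5 and 6.

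The elements near Jak2 and 4930519L02Rik opened after day 4. The element 35346 bp upstream of Jak2, a tyrosine kinase of cytokine signaling, had a median of 7.94 normalized counts in p0-1 on day 4 (lowest 5.87, highest 22.0), 403 on day 5 (lowest 153, highest 573) and 175 on day 6 (lowest 90.0, highest 467). In p2 on day 5 the 6 samples were between 29.1 and 72.9 counts, all below the 6 p0-1 samples. The element 53738 bp upstream of 4930519L02Rik, a gene without a known role, followed the same course, with medians in p0-1 of 12.3 on day 4, 322 on day 5 and 165 on day 6. An element 279746 bp upstream of Tshz3, a zinc finger factor, had a median of 8.73 counts in p0-1 on day 4 and 505 on day 6.

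Other members were already high on day 4. The element 79525 bp upstream of Cdon, an Shh co-receptor, was present in NMPs (104, 159 and 170 counts) and had medians of 387 in p0-1, 184 in p2, 100 in pMN and 141 in p3 on day 4. By day 6 its median was 144 in p0-1, but the 2 samples without SAG had 683 and 1321 counts and the 3 at 10 nM 79.4, 66.4 and 144. The element 59516 bp upstream of Htatip2, in the Dbx1 region, had medians of 17.0 in NMPs and 1214 in p0-1 on day 4. The plot of 6 elements shows the late opening at Jak2 and 4930519L02Rik beside the early opening near Dbx1.

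**Figure D2:**
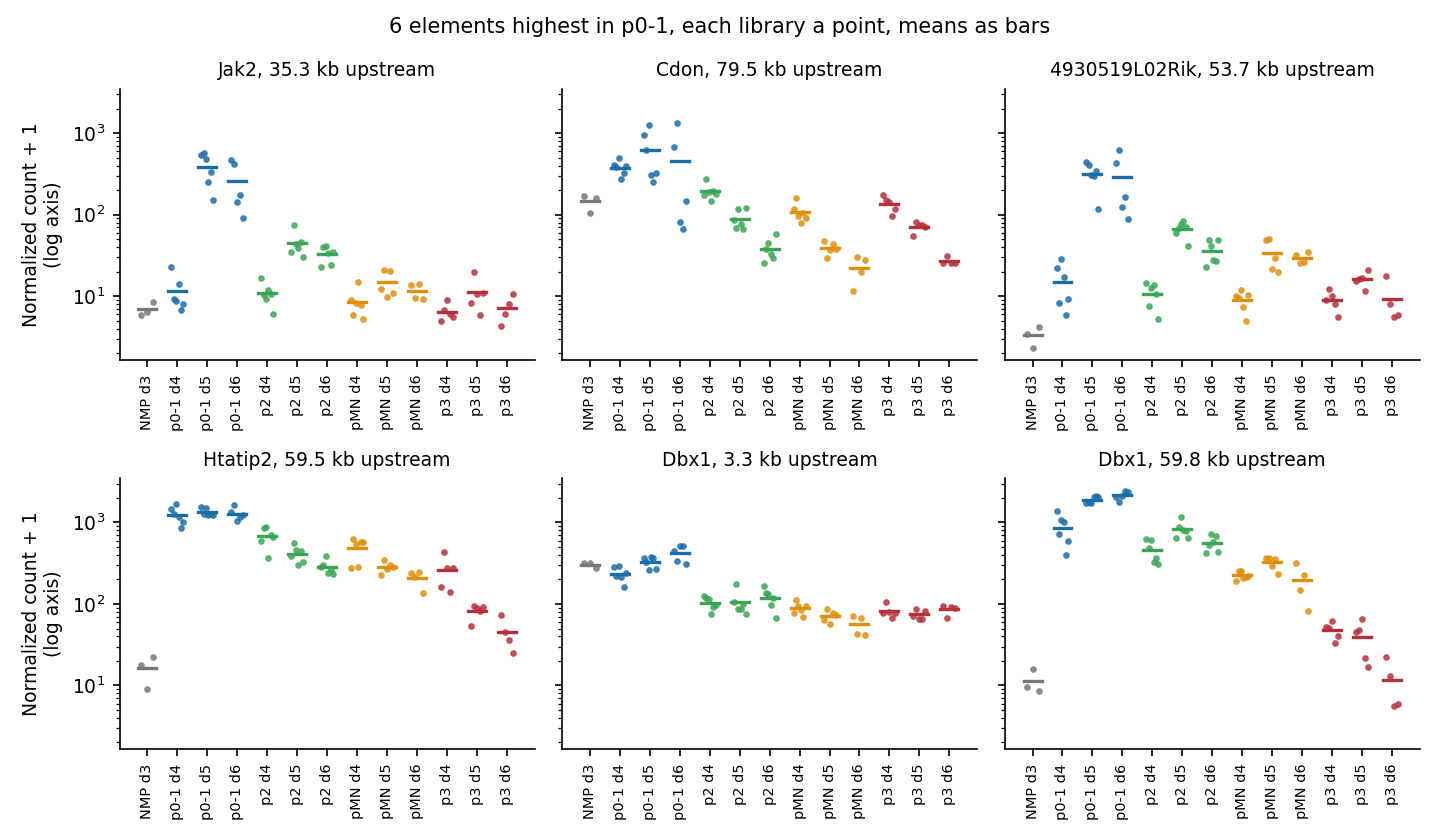
Normalized count plus 1 (log axis) of 6 elements in p0-1, p2, pMN and p3 samples and NMPs by day, 1 point per library with means as bars. The Jak2 and 4930519L02Rik elements have medians of 7.94 and 12.3 counts in p0-1 on day 4, while the Htatip2 element is at 851 or more there.

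The members fell into classes by when they first reached a VST of 7 in this lineage. They numbered 683 (59.0%) that were below it in NMPs and in p0-1 on day 4 and opened later, 322 (27.8%) that opened between day 3 and day 4, 135 (11.7%) open on both days, and 18 open in NMPs only. Among the 27003 other elements at or above 7 in p0-1 on days 5 and 6 the classes held 15.5%, 16.8%, 66.3% and 1.39%. The late class lay farther from genes, at a median of 76793 bp from the TSS, against 15345 bp in the class open on both days.

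From NMPs to p0-1 on day 4, accessibility rose strongly at the members. Of 440 members with a mean above 100 normalized counts in these 9 samples, 279 were called higher in p0-1 and 33 lower by limma, the call needing a more than 2-fold change and an adjusted p under 0.01. The background was 18.3% of 31048 tested elements higher and 23.2% lower. Over all 1158 members, without the filter on the mean, the median difference was 1.65 and over all elements 0.03. The rise was not particular to p0-1. The median VST over the members was 4.55 in NMPs and, on day 4, 6.63 in p0-1, 6.57 in p2, 6.28 in pMN and 5.79 in p3. An element 9514 bp upstream of Sfrp5, an inhibitor of Wnt ligands, went from 10.8, 11.9 and 14.5 counts in NMPs to between 605 and 1360 in p0-1, a VST difference of 5.33 ± 0.24 (SE). The element 59780 bp upstream of Dbx1 went from between 7.54 and 14.8 to between 393 and 1387 counts, by 5.27 ± 0.32, and that of Tnfrsf19, a receptor of the TNF family, by 5.95 ± 0.63, with 1 p0-1 sample at 163 counts and a median of 1784. The Tnfrsf19 element had higher medians in the other NPs on day 4, at 1891 in p2, 2148 in pMN and 1988 in p3. Among members that fell were elements of Lmx1b, a roof plate homeodomain factor (-1.84 ± 0.18), and Rspo1, an enhancer of Wnt signaling (-1.76 ± 0.21). The adjusted p in limma was 4.6e-06 or less for each of these 5 elements.

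Day 4 was not used by the rule, and there the separation of p0-1 from the other NPs was tested. The 3 comparisons share the 6 p0-1 samples. Against p3, 457 members passed the filter on the mean, 140 were called higher in p0-1 and 0 lower, beside 3.24% of all 29420 tested elements higher. Against pMN, 498 passed, 35 were higher and 0 lower, beside 0.554%. Against p2, 528 passed, 1 was higher and 0 lower, beside 0.00337% of 29657. In a fit blocked by replicate number the count against p2 was 4, beside 0.0135%. The member called without the block was the element 3270 bp upstream of Dbx1.

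Without the filter, the median difference over all 1158 members was 0.67 against p3, 0.30 against pMN and 0.08 against p2, beside 0.02, 0.01 and -0.01 over all elements. The values in p0-1 did not overlap those of the other type at 161 of the members tested against p3, 63 against pMN and 9 against p2. These were 35.2%, 12.7% and 1.70% of the members tested, and 5.79%, 2.16% and 0.418% of all elements tested. The plot of day 4 differences shows the shift against p3 and its near absence against p2.

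**Figure D3:**
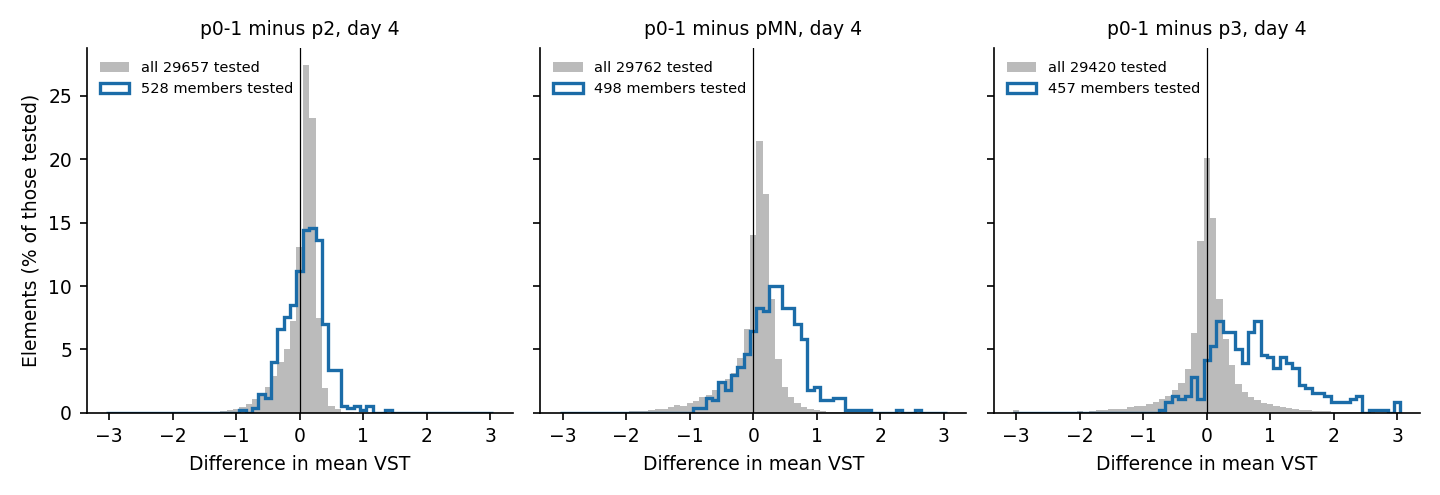
Share of tested elements (vertical axis, %) by the difference in mean VST between p0-1 and p2, pMN or p3 on day 4 (horizontal axis), for all elements tested (filled) and for the members tested (line). The members' median difference is 0.11 against p2, 0.33 against pMN and 0.69 against p3.

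The day 4 contrast with p2 was also taken within 1 SAG concentration. At 10 nM, the only concentration sorted for both, 254 of 1158 members (21.9%) were higher in p0-1, with a median difference of -0.33, beside -0.05 over all elements (3 samples each). The library medians were 6.79, 5.96 and 6.18 in p0-1 and 6.87, 6.33 and 6.96 in p2, so that p0-1 was the lower one at each of the 3 replicate numbers. In a blocked limma fit of these 6 samples, chosen after the data were seen, 2 members were called higher in p0-1 and 21 lower, beside 0.0237% and 2.6% of all elements. Without the block limma called 0 members, with 54 at an unadjusted p under 0.05. In these libraries the mean summed count of every set of marker elements was higher in p0-1 than in p2, and the ranges overlapped. For 5 p0-1 marker elements the sums were 5277 to 8506 in p0-1 and 5537 to 6264 in p2. For 3 p2 elements they were 4236 to 5687 and 3917 to 4543, and for 2 pMN elements 987 to 2031 and 1048 to 1622. For 5 NMP elements they were 1853 to 3444 and 1631 to 2281, and for 9 dorsal elements 4624 to 9248 and 4133 to 5782. For 3 mesoderm elements they were 1323 to 2295 and 1037 to 1455. Across the 1158 members, which are not independent replicates, the correlation of a library with the mean of the others of its group was between 0.911 and 0.942 in p0-1 and between 0.959 and 0.973 in p2. Their part in this contrast was not tested. On days 5 and 6, which the rule used, 1138 and 1145 members were higher in p0-1 at 10 nM, by medians of 0.47 and 0.66.

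Around Dbx1 lay the largest run of members. Between chr7:49633350-49810129 in mm10, 7 of 21 elements were members, annotated to Dbx1, Htatip2, a metastasis suppressor gene, and Prmt3, an arginine methyltransferase gene. In all, 237 members lay in 104 runs in which neighbors were at most 100000 bp apart. At the element 3270 bp upstream of Dbx1, p0-1 had 160 to 289 normalized counts on day 4, with a median of 227, and p2 had 73.7 to 124, with a median of 105. These groups did not overlap, and pMN (highest 110) and p3 (highest 104) lay below p0-1 too. The VST difference was 1.08 ± 0.16 (SE) to p2 (limma, adjusted p = 0.00587), 1.29 ± 0.15 to pMN (adjusted p = 3.9e-05) and 1.39 ± 0.17 to p3 (adjusted p = 4.9e-05). The call against p2 was lost when any of 8 single libraries, among them each p0-1 sample without SAG and each p2 sample at 100 nM, was left out.

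Farther from Dbx1, the element 59780 bp upstream had medians of 861 counts in p0-1, 426 in p2, 216 in pMN and 49.3 in p3 on day 4. It separated p0-1 from p3 with no overlap, the lowest p0-1 sample being at 393 and the highest p3 sample at 60.5 counts, by 3.80 ± 0.27 (limma, adjusted p = 9.5e-07). The difference to pMN was 1.79 ± 0.24 (adjusted p = 0.000118). On day 6 its mean VST was 11.1 in p0-1, 9.13 in p2, 7.54 in pMN and 4.35 in p3, the widest range in the Dbx1 region. The neighboring Htatip2 element had medians of 1214, 679, 555 and 277 counts in the same order on day 4, and differed by 1.38 ± 0.23 from pMN (adjusted p = 0.000652) and by 2.28 ± 0.25 from p3 (adjusted p = 2.9e-05). Other elements of the window, such as that at the start of Prmt3, had similar levels in all NPs, with means between 8.50 and 8.82 on day 4.

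**Figure D4:**
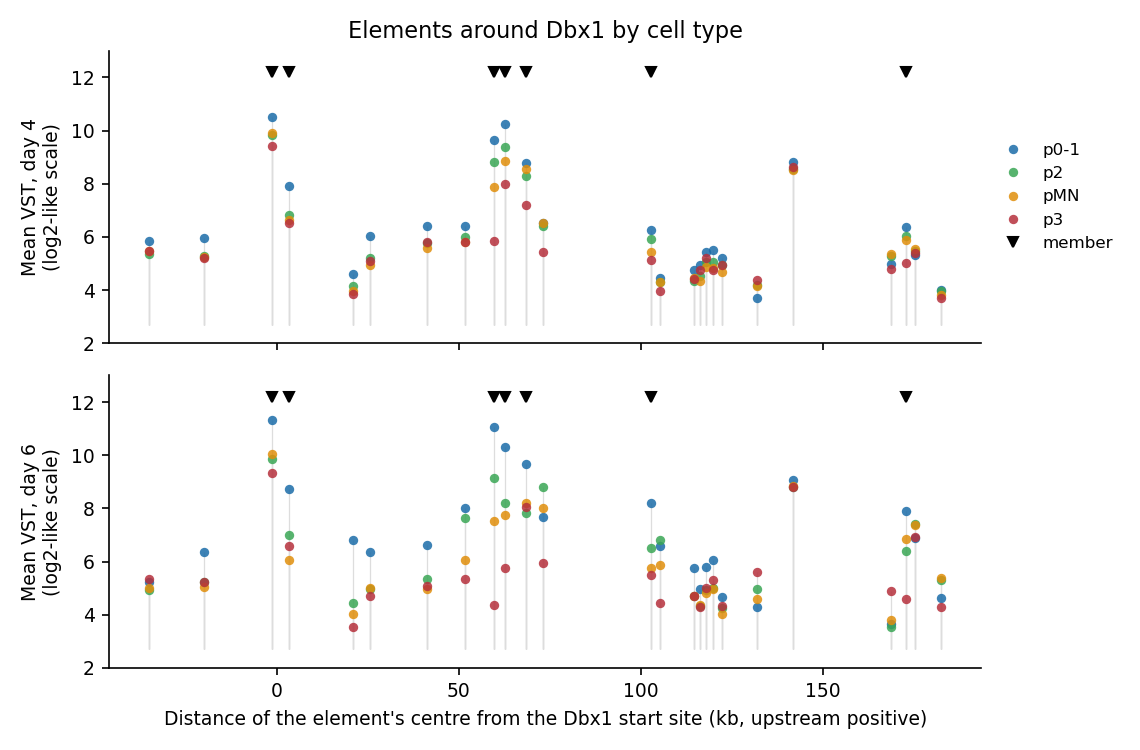
Mean VST (vertical axes, log2-like scale) on day 4 and day 6 of the 25 elements around Dbx1 in p0-1, p2, pMN and p3, by distance of the element's center from the Dbx1 start site in kb (upstream positive), with triangles over the 7 members. The element 59780 bp upstream has day 6 means of 11.1 in p0-1 and 4.35 in p3.

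Of the 250 elements annotated to 19 p0-p1 progenitor and V0-V1 genes 11 were members (4.40%, against 1.04% of all elements), at Dbx1, Dbx2, Prdm12, Prdm13 and Irx3. On day 4, 10 of these 11 were tested against p3 and 7 were called higher in p0-1, and against pMN 3 of 10, beside 30.6% and 7.03% of all members tested and 3.24% and 0.554% of all elements. At Prdm13, a zinc finger factor of dorsal and intermediate progenitors, the element 2778 bp upstream had 754 to 1645 counts in p0-1 and 296 to 561 in p3 on day 4. The groups did not overlap, and the difference was 1.39 ± 0.19 (limma, adjusted p = 0.000184). The element 1382 bp upstream of Prdm12, a factor needed for V1 interneurons, differed from p3 by 1.02 ± 0.20 (adjusted p = 0.00276). A single member was annotated to a ventral progenitor gene, among 271 elements (0.369%), and it was 25550 bp from the start of Gata3, a factor of V2b interneurons.

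Dorsal progenitor and roof plate genes held 18 members among 378 elements (4.76%), 6 of them at Pax3, between chr1:78110154-78218493. The element at the start of Pax3 was highest in NMPs (933 to 1133 counts). On day 4 it had a median of 634 counts in p0-1, 461 in p2, 402 in pMN and 486 in p3. Of 13 dorsal members tested on day 4, 0 were called against pMN and 3 against p3. These stood beside 7.03% and 30.6% of all members tested and 0.554% and 3.24% of all elements. Counts this small do not set the list apart from all members. From NMPs to p0-1 on day 4, 3 of 13 dorsal members rose and 2 fell, and of the p0-p1 list 4 of 8 rose and 0 fell. Over all members tested 63.4% rose and 7.5% fell, and over all elements tested 18.3% and 23.2%. The difference between the lists was not tested.

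Of the 184 elements of Hedgehog pathway genes 6 were members (3.26%): 3 at Gli3, the main repressor of the pathway, and 1 each at Gas1, Boc and Cdon, which encode Shh co-receptors. On day 4 all 5 that passed the filter were called higher in p0-1 than in p3, beside 30.6% of all members and 3.24% of all elements tested. Against pMN 1 of 5, that of Cdon, was called higher, beside 7.03% and 0.554%. At the Boc element, 20965 bp upstream, p0-1 had 91.0 to 298 counts and p3 30.3 to 72.0. These did not overlap and differed by 1.92 ± 0.28 (limma, adjusted p = 0.000266), while p2 and pMN had medians of 255 and 268 against 219 in p0-1. The Gas1 element differed from p3 by 1.58 ± 0.29 (adjusted p = 0.00134) and the intronic Gli3 element by 1.08 ± 0.19 (adjusted p = 0.000969). The Cdon element differed by 1.71 ± 0.17 from pMN (adjusted p = 8.8e-06) and by 1.40 ± 0.17 from p3 (adjusted p = 6.8e-05).

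Of the other lists, FGF pathway genes held 8 members among 199 elements (4.02%), 5 of them at Fgfr2, an FGF receptor, and Notch pathway genes 5 of 169 (2.96%), at Jag1, Hes1 and Hes3. Axon guidance and cadherin genes held 23 of 1108 (2.08%), Wnt pathway genes 3 of 367 (0.817%) and neural crest genes 0 of 96. Against p3 on day 4, 2 of 5 FGF members and 1 of 4 Notch members tested were called higher in p0-1, beside the 30.6% of all members and the 3.24% of all elements. Outside these lists the calls of smallest adjusted p were those of Sfrp5 and Adra2a against pMN and of Sfrp5 and Wscd1 against p3. The differences were 2.62 ± 0.27 to pMN and 2.99 ± 0.23 to p3 at Sfrp5, 1.14 ± 0.11 and 1.29 ± 0.14 at Adra2a, an adrenergic receptor gene, and 2.30 ± 0.18 to p3 at Wscd1. At Wscd1 the p3 samples had 47.6 to 88.8 counts and the samples of p0-1, p2 and pMN all had 235 or more, so that p3 alone stood apart.

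Within p0-1, the members were compared between 10 nM SAG and none. Day 4 was not used by the rule, while the samples of days 5 and 6 set its means, in which a member can be high through the arm without SAG alone. The mean of the library medians was 6.94 ± 0.38 (SD, n = 3) without SAG and 6.31 ± 0.43 (n = 3) at 10 nM on day 4, as 8.17 ± 0.22 and 7.96 ± 0.05 (n = 3 each) on day 5, and as 8.17 ± 0.32 (n = 2) and 7.70 ± 0.20 (n = 3) on day 6. Number 2 was the lowest of the 3 replicates in both arms on days 4 and 5, and groups were also compared within differentiations. Of the tested members, 75.3% were lower at 10 nM in all 3 differentiations on day 4, 53.5% in all 3 on day 5 and 65.3% in both on day 6. Over all tested elements these shares were 19.3%, 22.4% and 21.1%. Over all 1158 members the median difference was -0.55, -0.19 and -0.40, against -0.04, 0.00 and 0.05 over all elements, as the plot of SAG differences shows.

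**Figure D5:**
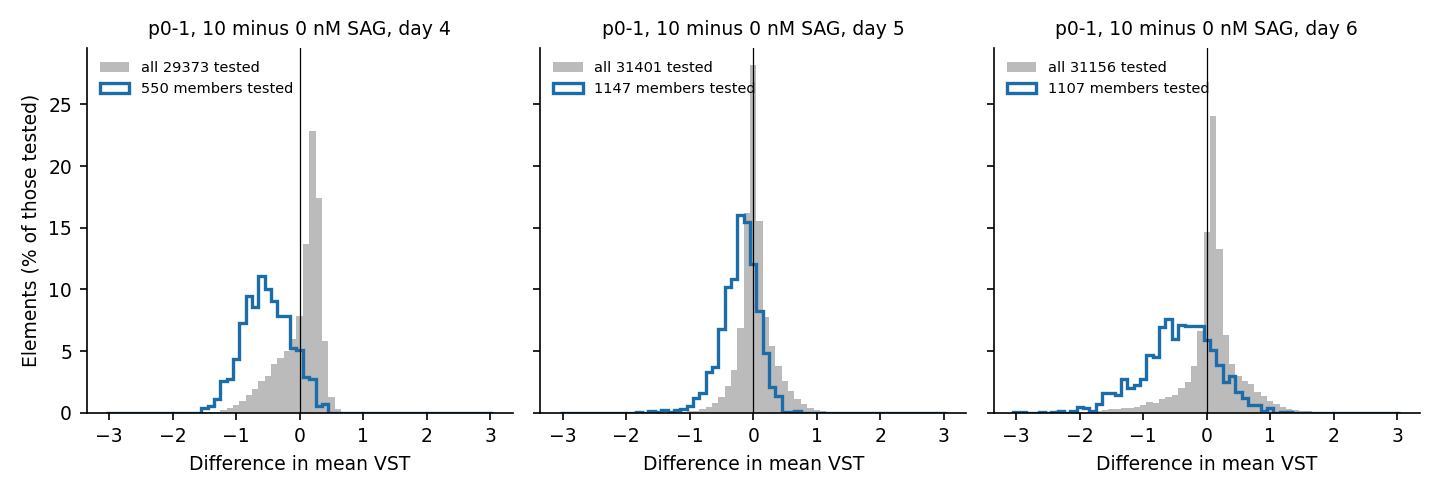
Share of tested elements (vertical axis, %) by the difference in mean VST between p0-1 samples at 10 and 0 nM SAG (horizontal axis) on days 4, 5 and 6, for all elements tested (filled) and the members tested (line). The members lie to the left of the other elements on each day, with medians of -0.54, -0.19 and -0.39 among those tested.

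How many single members passed a test depended on whether the differentiation was in the model. Without a block limma called 0 members on each day, with 131, 265 and 395 members at an unadjusted p under 0.05, and voom on the recovered reads called 0 as well. With the replicate number as a block, it called 49 members lower on day 4, 26 on day 5 and 184 on day 6, beside 0.62%, 0.395% and 3.27% of all elements. On days 4 and 6 the variance in these fits came wholly from the trend over elements, with 2 and 1 residual degrees of freedom for each element. A blocked fit of the 3 days together, added after the data were seen, left 5 and called 40, 18 and 129 members lower, beside 0.409%, 0.207% and 2.16%. It called 3 higher on day 6, beside 2.09%. Nothing is read from the counts of days 5 and 6, and adjusted p is given for day 4 alone, from this fit.

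On day 4, the element 30347 bp from the start of Gas1 had 404, 175 and 405 counts without SAG and 210, 116 and 299 at 10 nM, in the order of the replicates. It was lower at 10 nM in each differentiation, by -0.62 ± 0.11 (limma, adjusted p = 0.00499), under the fold of 2. The element 122182 bp from the start of Myo3a, a myosin gene, was called lower, at between 51.9 and 290 counts against between 195 and 458, by -1.50 ± 0.27 (adjusted p = 0.00566). At both elements the groups overlapped, and each sample at 10 nM was below that of the same differentiation without SAG. The Cdon element differed by -0.37 ± 0.13 (adjusted p = 0.0738) and the intronic element of Wnt3a, a Wnt ligand of the roof plate, by -0.12 ± 0.18 (adjusted p = 0.609).

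On the later days the Cdon element had 937, 617 and 1270 counts without SAG and 305, 252 and 328 at 10 nM on day 5. The groups did not overlap, and the difference was -1.58 ± 0.13 on day 5 and -3.11 ± 0.16 on day 6. The Jak2 element had 541, 573 and 477 counts without SAG and 253, 329 and 153 at 10 nM on day 5, again without overlap. Its difference was -1.14 ± 0.19, and -1.71 ± 0.22 on day 6. These elements have a large excess in the rule, to which the high samples without SAG contributed.

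The Wnt3a element had 922, 558 and 1047 counts without SAG and 211, 247 and 242 at 10 nM on day 5. The samples without SAG were the high ones, also on day 6, and the differences were -1.75 ± 0.18 and -2.33 ± 0.23. On day 6, 4 of 18 dorsal members, 2 of 6 Hedgehog members, 3 of 5 Notch members and 0 of 10 of the p0-p1 list were called lower, beside 129 of all 1107 members tested (11.7%) and the 2.16% of all elements. The day 6 samples set the rule's means, so these counts cannot test the lists, and nothing is read from how the lists differ. Differences on day 6 were -1.04 ± 0.12 at the start of Pax3, -1.18 ± 0.19 in an intron of Gli3, -1.15 ± 0.23 at Hes1, a Notch effector, and -1.34 ± 0.22 at Bambi, a pseudoreceptor that dampens TGF-beta signaling.

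In the Dbx1 region, the 5 members tested on day 4 had lower means at 10 nM, by differences between -0.36 and -1.19. The element 59780 bp upstream of Dbx1 had 1387, 718 and 1070 counts without SAG and 1004, 393 and 592 at 10 nM, a difference of -0.72 ± 0.10 in the blocked fit of the 3 days (limma, adjusted p = 0.00249, under the fold of 2). The Htatip2 element 59516 bp upstream differed by -0.54 ± 0.11 (adjusted p = 0.00838), also under that fold. On day 5 the differences of the 7 members lay between -0.23 and 0.26, and on day 6 between -0.59 and 0.37. The lowest was that of the Prmt3 element on both days and the highest on day 5 that 59780 bp upstream of Dbx1, with 1732, 1766 and 1706 counts without SAG and 2061, 2110 and 2051 at 10 nM. The 3 members called higher at 10 nM on day 6 were elements of Mir297c (1.28 ± 0.20), 4930519F24Rik (1.03 ± 0.19) and St3gal3, a sialyltransferase (0.87 ± 0.17).

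Marker elements moved with the SAG concentration as well. The summed counts of 9 elements at the starts of dorsal genes, 2 of them members, were between 5314 and 5864 without SAG and between 4661 and 5274 at 10 nM on day 5. On day 4 they were between 4381 and 6223 without SAG and between 4624 and 9248 at 10 nM, and on day 6 between 5912 and 6352 and between 4959 and 6044. The 3 elements at p2 markers, 0 of them members, were between 3622 and 4557 without SAG and between 4162 and 4957 at 10 nM on day 5. The 2 elements at p3 markers, 0 of them members, did not overlap, at between 768 and 868 without SAG and between 1014 and 1138 at 10 nM on day 5, and between 747 and 819 and between 906 and 1037 on day 6. Nor did the 5 at p0-1 markers, 2 of them members, which were at between 7802 and 8505 and between 8578 and 8791 on day 5, and between 9427 and 9923 and between 10397 and 11136 on day 6. The part of these in the differences between SAG concentrations was not tested.

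In p2, whose samples of days 5 and 6 also set the rule's means, the median difference between 100 and 10 nM over all 1158 members was -0.18 on day 5 and -0.07 on day 6, beside -0.02 over all elements on both days. On day 6, 25.8% of the members tested and 32.0% of all elements tested were lower in every differentiation, and the median over the members tested, -0.07, was 0.07 without replicate 3 at 10 nM and 0.01 without replicate 1 at 100 nM. Limma without a block called 0 members on either day, with 140 and 62 at an unadjusted p under 0.05, and voom called 0. With the block it called 8 lower on day 5, beside 1.54% of all elements, and in a blocked fit of both days 4 of the 894 members tested, beside 0.424%. At Trim2, a ubiquitin ligase gene, the 3 samples at 10 nM had 475, 456 and 450 counts on day 5 and those at 100 nM 172, 136 and 192. The groups did not overlap and the difference was -1.41 ± 0.12.

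Between day 5 and day 6 members of p0-1 went in both directions. Of 1158, 43 were called higher and 53 lower on day 6 by limma, beside 2.34% and 1.76% of all elements, with a median difference of -0.21. Both days belong to the rule, so nothing is read from these counts. The element of Aig1, a hydrolase of lipids, had 68.2 to 163 counts on day 5 and 599 to 877 on day 6, without overlap, a difference of 2.84 ± 0.20. That of Etl4 differed by 1.97 ± 0.10, from 155 to 239 counts to 746 to 883. The element of Gcm2, a parathyroid factor, went from 198 to 313 counts to 71.8 to 112, a difference of -1.22 ± 0.14. The Aig1 element also had 328 or more counts in all p2 samples of day 6 and 439 or more in all pMN samples. The calls ranged from 7 to 214 members when a replicate number was left out, 7 of them without number 2, and were 204 without the day 6 sample of replicate 3 without SAG. The median difference from day 5 to day 6 was -0.05 at members opened after day 4 and -0.52 at those opened by day 4.

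Short sequence motifs were counted in the central 300 bp of each element, on both strands. The TEAD core GGAATG, bound by the DNA-binding partners of YAP, was in 29.5% of members, 20.3% of all elements and 17.0% of the other elements outside promoters that were at or above 7 in p0-1. The share was 33.5% of members opened after day 4, 28.0% of those opened by day 4 and 14.1% of those open in NMPs and on day 4. In the elements highest in p2, pMN and p3 it was 14.2%, 17.7% and 27.0%. The extended core GGAATGT, which contains GGAATG and was added after the data were seen, was in 11.8% of members, 10.7% of the elements highest in p3 and 6.84% of all elements.

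The nuclear receptor core AGGTCA, which retinoic acid receptors and orphan receptors recognize, was in 25.5% of members and 19.8% of all elements. It was in 17.8% of the other elements outside promoters at or above 7 in p0-1. In the elements highest in p2, pMN and p3 it was in 17.8%, 23.8% and 20.6%. Of those opened after day 4, it was in 28.7% of members and 24.4% of other elements. The E-box CAGATG, a form bound by proneural and Olig proteins, was in 19.4% of members, 19.6% of the other elements outside promoters at or above 7 in p0-1, and in 50.5% of the elements highest in p2 and 37.3% of those highest in pMN, against 25.7% of all elements. The FOXA motif TGTTTAC was in 2.50% of members and 4.95% of all elements. In the elements highest in p2, pMN and p3 it was in 3.1%, 3.54% and 10.3%. The homeodomain core TAATTA was in 8.81% of members and 7.84% of all elements, and in 11.3%, 9.07% and 9.72% of those highest in p2, pMN and p3. The GLI motif GGGTGGTC was in 0.259% of members and 0.928% of all elements, and in 0%, 2.66% and 0.726% of those sets. Base composition differs between these sets, the median GC content being 45.3% in members and in the elements highest in p2, 47.7% for pMN and 46.3% for p3, and its part in the shares was not tested.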

How the data were processed

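Accessibility was analysed in 67 CaTS-ATAC samples. The authors processed reads with the nf-core atacseq pipeline on mm10, called peaks with MACS, counted reads in consensus intervals with featureCounts, and deposited DESeq2 variance-stabilized values on a log2 scale for 111638 elements, with an annotation of 133549, of which 21911 have no values here. The transformation was inverted, and below 1000 reads 100% of what was recovered was a whole number of reads, to within 3.58e-11. Samples were grouped by the labels. For each comparison, elements averaging over 100 normalized counts were tested with limma 3.58.1 (trended variance, two-sided) in R 4.3.3 on the deposited scale, with Benjamini-Hochberg adjustment over all of them. A call needed an adjusted p under 0.01 and a fold above 2 in mean normalized counts. Fits were tested on simulated data.

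The members, gene lists and motifs were chosen with earlier results of these data known. Named elements were the 10 members with the largest excess, the member of largest excess at each p0-p1, dorsal, ventral and Hedgehog gene and the 2 of each other list, the 3 of smallest adjusted p in each direction of a comparison (all if 5 or fewer), the 5 promoters of largest excess, the 3 nearest each side of the threshold, the leading member of the 5 genes with most members, and the 3 highest in and the 3 rising most from NMPs. For SAG and day the fit with the block was used as well, and the intronic Dbx1 element was named as a marker. The lists were p0-p1, dorsal and ventral progenitor, Hedgehog, BMP, Wnt, retinoic acid, Notch, FGF, proneural, pan-neural, gliogenic, neuron, NMP, neural crest, pluripotency, axon guidance and Meis, Pbx and Hox cofactor genes.

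Equal replicate numbers in the titles were taken to mark the same differentiation. The titles give only a number, so this was inferred from the correlations that follow. Deviations from the group means of same-numbered samples had a median correlation across elements of 0.42, 0.41 and 0.50 in the p0-1 SAG comparisons of days 4, 5 and 6 and 0.46 for p2 on day 4, with a lowest pair of 0.26 or more. The medians for different numbers were negative. Deviations cancel within a group, so these negative values follow from the positive ones and are no separate evidence. The lowest same-numbered pair was -0.34 for p3 on day 4 and -0.19 for NMPs, which were not taken as paired. For 15 samples the description gives another number than the title. Sequences came from a GRCm38 genome, in which 0 elements ended beyond a chromosome and 97.6% of the 8070 promoter elements with an annotated gene lay within 2000 bp of a TSS of their gene.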

Additional observations from a re-analysis of the deposited data

Results flagged for a closer look

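Among 15 named elements and 45 groups of libraries, 2 groups held 1 sample that stood apart by Dixon's test at its 95% critical value, which chance gives in about 1 in 20 groups. The 4930519L02Rik element had a VST of 7.03 in the p0-1 sample of day 5 at 10 nM SAG, replicate 3, the lowest of 6. The Wscd1 element had 7.95 in the p0-1 sample of day 4 at 10 nM SAG, replicate 2, also the lowest of 6. No group stood out by this test among the 12 examined for the median over the members.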

How the results depend on the processing

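The number of members was 3037 with a difference of 0.25, 161 with 1, 2200 with a floor of 6 and 549 with 8, and between 1112 and 1267 without a replicate number. Calls on day 4 against p2 were 0 with an absolute log2 fold change over 2, 2 with an adjusted p under 0.05, 2 with all samples in one fit, 0 at 10 nM without and 23 with the replicate block, and 4 with the block by either numbering. Against pMN they were 73 without a fold threshold, beside 522 higher and 1701 lower of all 29762 elements tested. They were 2 over a log2 fold change of 2, beside 4 and 150, and 75 without the filter, beside 890 and 5822 of 111638. Against p3 they were 40 over a log2 fold change of 2, beside 219 and 242 of 29420. Without the filter they were 317, beside 3871 and 6121. From NMPs they were 837 without the filter, 794 higher and 43 lower, beside 29842 and 23151. Call counts in this paragraph join both directions unless stated, and serve only to compare settings. The SAG calls on days 4, 5 and 6 were 49, 26 and 189 with the replicate block, and 40, 18 and 132 with it in one fit of the 3 days. With all samples in one fit and no block they were 8 on day 5 and 63 on day 6, and on day 5 they were 11 with an adjusted p under 0.05 and 3 with centred samples. In p2 they were 8 on day 5 with the block, 4 and 2 on days 5 and 6 with it in one fit, and 1 on day 6 with all samples in one fit. Between days 5 and 6 they were 238 without a fold threshold and 6 over a log2 fold change of 2. Without a replicate number the calls ranged from 0 to 0 against p2, 18 to 29 against pMN, 49 to 168 against p3, 267 to 345 from NMPs, 7 to 214 between days 5 and 6, 0 to 25, 0 to 0 and 0 to 119 for SAG, and 0 to 4 and 0 to 0 in p2. The lowest count against p3 came without number 1, and 82 without number 3. Without 1 library they were 0 to 2 against p2, 26 to 54 against pMN, the highest without replicate 2 of p0-1 at 10 nM, and 101 to 182 against p3. In the central 150 bp the motifs were in 16.6% (TEAD), 13.6% (nuclear receptor core), 9.93% (CAGATG) and 1.38% (FOXA) of members. The causes were not tested. The 23 against p2 at 10 nM were 2 higher and 21 lower, with a median difference over the members tested of -0.26, where all samples together gave 0.11 and 1 higher. The block changed no other call count by more than 1.5 times.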

Other observations

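Of the 20 members at promoters, the element 4368 bp upstream of Mtm1, a phosphatase gene, had the largest excess, at 1.33, with a mean VST in p0-1 of 4.36 on day 4 and 7.57 on day 6. The element at the start of Frzb, an inhibitor of Wnt ligands, was open in all samples, with 1070 to 1758 normalized counts in p0-1 on day 4 and 1028 to 1437 on day 6. Elements near Sostdc1 and Dcn, which encode an antagonist of BMP and Wnt signals and a matrix proteoglycan, had an excess of 0.86 and 0.77.

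A member 20005 bp upstream of 2310008N11Rik was higher in p0-1 than in p2 on day 4. In p0-1 its medians were 554 counts on day 4, 485 on day 5 and 62.9 on day 6, and in p2 they were 212, 121 and 38.9. The difference to p2 on day 4 was 1.39 ± 0.11 with the replicate block (limma, adjusted p = 3.5e-05), and the difference from day 5 to day 6 was -2.76 ± 0.42.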
